A study of Mus musculus with 12 samples.

Results

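The genes described here are the chemokines and chemokine receptors of the mouse, chosen by name. Every gene called Ccl, Cxcl, Ccr or Cxcr with a number was taken, with a letter after it where there is one, and Cx3cl1, Cx3cr1, Xcl1 and Xcr1 were added. This gave 56 of the 55416 genes listed in each tissue, of which 38 are ligands (24 of the CC family, 12 CXC, 1 CX3C and 1 XC) and 18 are receptors (10 CC, 6 CXC, 1 CX3C and 1 XC). Pseudogenes were left out, and so was Cxcl11, which the reference annotation marks as a polymorphic pseudogene in this strain.

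Chemokines are small secreted or membrane-bound proteins that guide the movement of leukocytes, which carry the receptors. The receptors couple to G proteins of the Gi class, and a cell moves up the gradient of the ligand it can bind. In the small intestine the best known pairs are Ccl25 with Ccr9, which brings lymphocytes to the small bowel, Ccl28 with Ccr10, which brings IgA-secreting cells, and Cxcl13 with Cxcr5, which gathers B cells in follicles. Glucocorticoids are widely known to dampen the transcription of inflammatory chemokines.

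RNA-seq libraries were made from the duodenum (called intestine here, as in the labels) and the liver of mice that received corticosterone (CORT), the main glucocorticoid of rodents, or vehicle (Veh). The animals were male C57BL6/J mice, 8 weeks old at the start, and the injections were subcutaneous, at 40 mg/kg of CORT each day, for 8 weeks; the Veh group received only the solvent mixture. Each tissue had 3 Veh and 3 CORT libraries, 12 libraries in all, each from 50 mg of frozen tissue, and nothing in the labels ties a library number to an animal or to the same number in another group. The labels call the libraries of a group biological replicates and do not name the animals. If the libraries of a group were not from separate animals, the p-values measure a technical spread only.

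The values are TPM, a transcript abundance that corrects for gene length and is scaled to about the same sum in each library, which hides the read depth and leaves the error of counting unknown. The tissue labels matched the tissue markers. In intestine the intestinal transcription factor Cdx2 was at 59.7 to 91.6 TPM while the liver-specific albumin gene, Alb, was at 0.13 to 0.39 TPM, and in liver Alb was at 32823 to 59476 TPM. Fkbp5, a direct glucocorticoid target, rose in both tissues (log2 difference 4.30, adjusted p = 0.0045 in intestine, and 4.23, adjusted p = 0.00178 in liver, limma). Tsc22d3, the other gene set as a check of the treatment, rose in intestine (2.01, adjusted p = 0.0185, limma). In liver its estimate of 1.92 did not pass (adjusted p = 0.0623, limma). Some libraries stood apart. In intestine a list of 26 pancreatic acinar genes made up 4.15% and 3.3% of all TPM in Veh2 and Veh3 but 0.022% in Veh1 and 0.0211% to 0.0443% in the CORT libraries. CORT2 held the highest level of 8 of the 17 receptors above 0 (47.1%, against 25.5% of all genes tested), and in liver Veh2 held the highest level of 10 of the 16 members tested (62.5%, against 34.2%). All the tissues are bulk samples, in which fewer cells of a type and less RNA per cell cannot be told apart.

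The upstream sequences of 5 members are shown, picked from those whose groups did not overlap: Cxcl13 and Ccl22 in intestine and Ccl6, Cxcl1 and Cxcl10 in liver. The groups did not overlap in intestine for Ccl9, Ccl12, Ccl21b, Ccl25 and Xcl1 either, and their sequences are not shown. Ccr10 and Ccl5 had no entry in the promoter table. Each is the 250 bases before the RefSeq start site in GRCm38.p6, 5′ to 3′ in the direction of the gene, with motif matches in capitals. The windows lie at chr5:95956689-95956938 on the plus strand (Cxcl13), chr11:83593088-83593337 on the minus strand (Ccl6), chr8:94745434-94745683 on the plus strand (Ccl22), chr5:90890995-90891244 on the plus strand (Cxcl1) and chr5:92348890-92349139 on the minus strand (Cxcl10). Capitals mark the TATA box (TATAAA) in Cxcl13, a half-site of the glucocorticoid response element (GRE, AGAACA) in Ccl22, and kappaB sites in Cxcl1 and Cxcl10. None of the searched motifs was in the Ccl6 window.
Cxcl13: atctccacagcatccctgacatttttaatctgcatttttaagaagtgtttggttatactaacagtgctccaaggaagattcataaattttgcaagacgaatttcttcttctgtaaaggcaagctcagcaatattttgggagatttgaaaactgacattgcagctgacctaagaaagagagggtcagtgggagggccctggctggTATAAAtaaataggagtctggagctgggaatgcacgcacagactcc
Ccl6: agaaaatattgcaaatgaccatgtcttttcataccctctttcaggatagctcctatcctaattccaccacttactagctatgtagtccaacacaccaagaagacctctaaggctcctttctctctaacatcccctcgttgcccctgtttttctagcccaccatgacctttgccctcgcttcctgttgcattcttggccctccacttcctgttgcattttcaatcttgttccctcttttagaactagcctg
Ccl22: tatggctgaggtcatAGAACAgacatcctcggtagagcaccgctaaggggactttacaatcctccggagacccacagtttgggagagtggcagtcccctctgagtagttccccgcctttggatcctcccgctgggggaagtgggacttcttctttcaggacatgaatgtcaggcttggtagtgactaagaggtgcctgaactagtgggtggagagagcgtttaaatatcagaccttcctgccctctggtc
Cxcl1: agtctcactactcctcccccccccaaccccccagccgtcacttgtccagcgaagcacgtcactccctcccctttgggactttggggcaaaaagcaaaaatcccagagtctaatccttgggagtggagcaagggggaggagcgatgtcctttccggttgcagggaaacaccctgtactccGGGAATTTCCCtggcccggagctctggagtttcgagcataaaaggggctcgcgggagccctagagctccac
Cxcl10: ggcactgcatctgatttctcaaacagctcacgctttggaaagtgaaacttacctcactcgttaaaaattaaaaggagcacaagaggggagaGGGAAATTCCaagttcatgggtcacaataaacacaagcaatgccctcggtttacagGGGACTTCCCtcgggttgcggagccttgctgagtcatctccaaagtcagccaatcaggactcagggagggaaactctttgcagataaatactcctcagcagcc

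The promoter table held 42 of the 56 members, in 49 windows. The GRE half-site, searched on both strands, was in 8 of these 49 windows and in 16.1% of all 32851 promoter windows. The whole GRE (AGAACA, then 3 bases of any kind, then TGTTCT) was in 0 of the 49 windows and in 0.00913% of all. The kappaB site, also searched on both strands, was in 8 of the 49 windows and in 3.9% of all; the 8 members were Ccl9, Ccl20, Ccr3, Ccr6, Cxcl1, Cxcl2, Cxcl3 and Cxcl10. The TATA box, searched on the strand of the gene, was in 10 of the 49 windows and in 7.59% of all. The first base of the match lay 46 bases before the start site in Cxcl13 and 235 bases before it in Ccl22, and in Cxcl1 the kappaB match began 71 bases before it. These matches describe letters only, and binding at them was not measured.

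Of the 56 members, 33 were tested in intestine and 16 in liver. A gene was tested where its mean reached 1 TPM in Veh or CORT, and it is said to have risen or fallen where its adjusted p in limma was 0.05 or less with a fold change over 1.5. In all 14 members were tested in both tissues, 19 in intestine only (among them Cx3cl1, Ccl28 and 7 of the 8 receptors tested there), 2 in liver only (Cxcl1 and Ccl27b) and 21 in neither. Levels of the 35 members tested in either tissue are shown in the plot of log2(TPM + 1) by library. The groups overlapped for most genes, and both tissues had a few ligands far above the others.

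**Figure D1:**
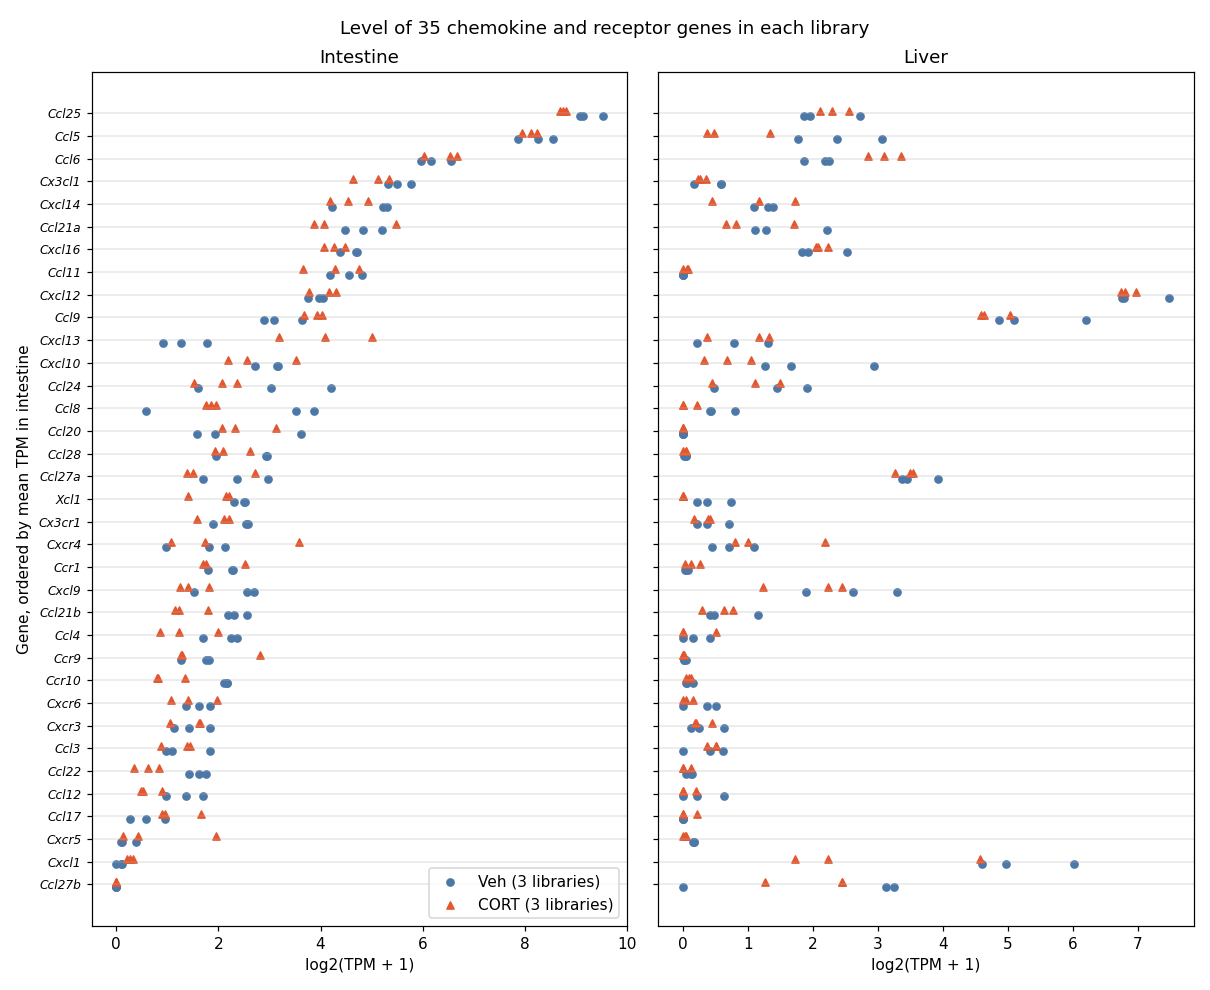
Level of the 35 members tested in intestine or liver, as log2(TPM + 1) on the horizontal axis, with genes ordered by their mean TPM in intestine. Circles are the 3 Veh libraries and triangles the 3 CORT libraries; Ccl25, Ccl5 and Ccl6 lead in intestine, while Cxcl12, Ccl9 and Cxcl1 lead in liver.

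In intestine 1 member rose, the B cell chemokine Cxcl13, and 1 fell, the plasma cell receptor Ccr10. Of all genes tested, 1.23% rose and 0.919% fell. Seen by direction alone, 9 of the 33 members tested were higher in CORT and 24 were lower, and their median log2 difference was -0.32, against -0.01 over all 13607 genes. The median was -0.37 for the 25 ligands tested and -0.07 for the 8 receptors. With Veh2 and Veh3 both left out (chosen after seeing the data), the median of the tested members was 0.06. The groups did not overlap for 8 members (24.2%), 2 higher and 6 lower in CORT, and this share lies near the 26.4% of all genes tested. An unadjusted p of 0.05 or less was found for 7 of the 33, against 19.2% of all genes. The tested members include Ccl12 and Ccl22, which reached the minimum of 1 TPM in Veh only, and Ccl17 and Cxcr5, which reached it in CORT only. The summed TPM of all 38 ligands was 1252, 1196 and 1253 in Veh and 955, 990 and 1035 in CORT, so that every CORT library lay below every Veh library. This separation came from Ccl25, since the other 37 ligands summed to 514, 652 and 689 TPM in Veh and to 525, 578 and 590 TPM in CORT, with Veh1 below every CORT library. For the 18 receptors the sum was 15.7, 25.5 and 24.8 in Veh and 13, 39.6 and 15.1 in CORT.

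**Figure D2:**
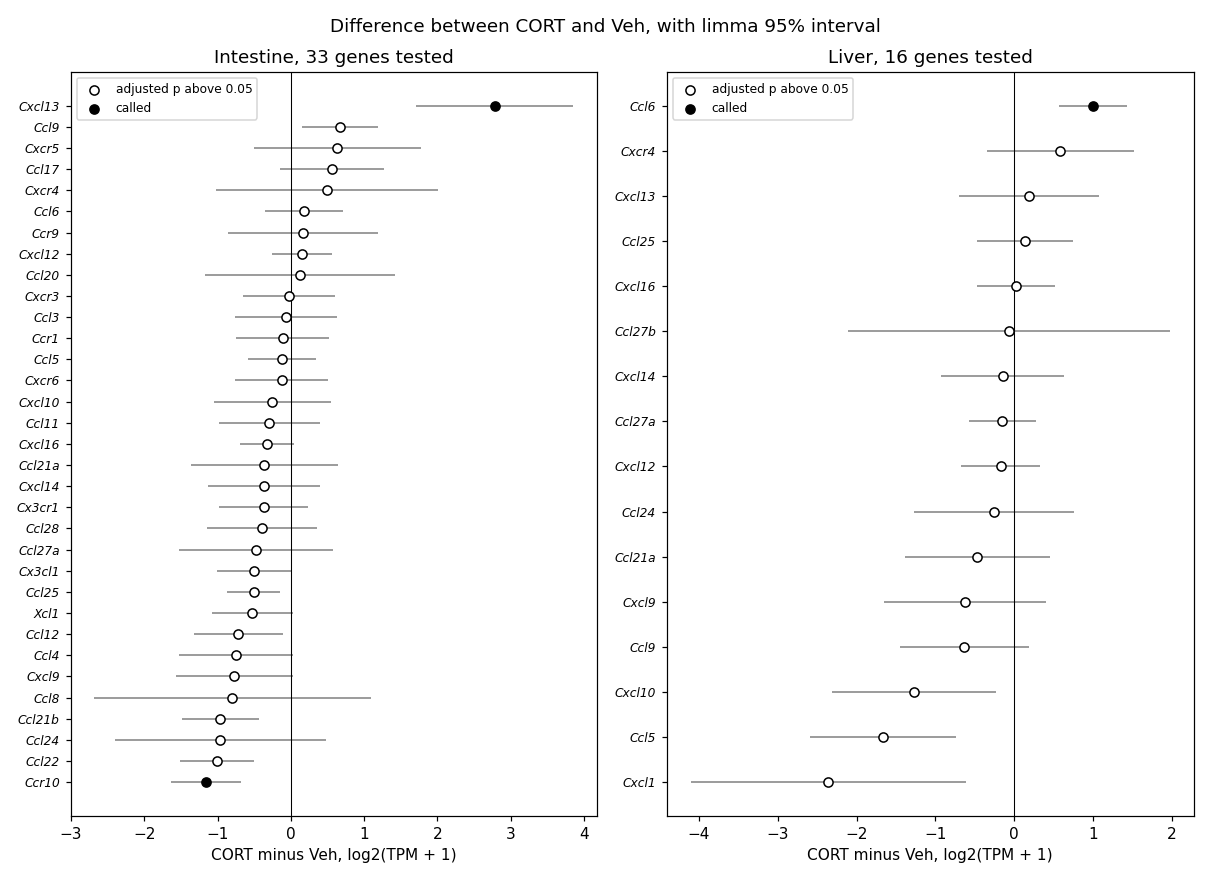
Difference between CORT and Veh on the log2(TPM + 1) scale, with the 95% interval from limma, for each member tested in intestine (33) and in liver (16). Filled points passed the test: Cxcl13 and Ccr10 in intestine and Ccl6 in liver.

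Cxcl13 (ENSMUSG00000023078), the ligand that follicular stromal cells make to attract B cells, measured 1.41, 0.88 and 2.44 TPM in Veh and 8.14, 31.29 and 16.08 TPM in CORT. The lowest CORT library was above the highest Veh library, and the CORT libraries differed widely among themselves. The group means were 1.58 ± 0.793 TPM in Veh and 18.5 ± 11.8 TPM in CORT (SD, n = 3 each), a ratio of 11.7. On the log2 scale Cxcl13 rose by 2.78 (SE 0.455, 95% interval 1.70 to 3.86, adjusted p = 0.035, limma). The highest library, CORT2, also held the most B cell RNA. A list of 10 B cell genes summed to 51.7 TPM in CORT2 and to 8.51 to 24.7 TPM in the other libraries, with the B cell surface gene Ms4a1 at 3.79 TPM in CORT2 and at 0.02 to 0.24 TPM elsewhere. None of the 6 B cell genes tested passed in limma, and 0 had an unadjusted p of 0.05 or less. In CORT1 and CORT3 the B cell list summed to 8.51 and 10.7 TPM, below every Veh library, and Cxcl13 was at 8.14 and 16.08 TPM. Most of these list sums came from Cd79a and Cd79b. Of the list, only Cd79a, Cd79b and Cd22 lay below every Veh library in both CORT1 and CORT3, and Ms4a1 was at 0.09 and 0.18 TPM there. The part of B cell content in the rise of Cxcl13 was not tested. Without CORT2 the log2 difference was 2.32 and the adjusted p was 0.0646, so the call was lost. It was also lost without Veh1 (2.75, adjusted p = 0.0775), Veh2 (2.57, adjusted p = 0.105), Veh3 (3.01, adjusted p = 0.0929) and CORT3 (2.78, adjusted p = 0.0905), and it held without CORT1 (3.23, adjusted p = 0.0361). With both libraries rich in acinar RNA, Veh2 and Veh3, left out, the difference was 2.83 (adjusted p = 0.357), in a fit where the lone Veh library is assumed to vary like the CORT libraries.

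The receptor of Cxcl13 is Cxcr5, carried by mature B cells and follicular helper T cells. Its levels were 0.08, 0.07 and 0.31 TPM in Veh and 0.09, 2.88 and 0.34 TPM in CORT. A single library, CORT2, was high, and the other 5 overlapped. The log2 difference of 0.64 (SE 0.482) had an adjusted p of 0.511. Exons of Cxcr5 overlap those of Bcl9l on the other strand, and the handling of strand in the counting is not given in the sources used here.

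CORT2 was also the highest library for Cxcr4, the receptor of Cxcl12 on most leukocytes, with 10.92 TPM against 0.95 to 3.39 TPM in the other libraries. The same was seen for Ccr9, at 6.04 TPM against 1.39 to 2.54 TPM. For Ccr7 and Ccr6, which did not reach the minimum for testing, CORT2 held 1.39 and 1.65 TPM, while the other libraries stood at 0.16 to 0.54 and at 0.05 to 1.03 TPM. None of these receptors passed the test. The part of the B cell content of CORT2 in these levels was not tested.

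Ccr10 (ENSMUSG00000044052), the receptor by which IgA plasma cells follow Ccl28 into mucosa, was at 3.5, 3.5 and 3.32 TPM in Veh and at 0.77, 1.55 and 0.74 TPM in CORT. The Veh libraries were nearly equal and every CORT library lay below them. The means were 3.44 ± 0.104 TPM in Veh and 1.02 ± 0.459 TPM in CORT (SD, n = 3 each), so that the Veh mean was 3.37 times the CORT mean. Ccr10 fell by 1.16 on the log2 scale (SE 0.201, 95% interval -1.63 to -0.68, adjusted p = 0.0397, limma). The call held without CORT2 (-1.34, adjusted p = 0.0334) and was lost without Veh1 (-1.15, adjusted p = 0.0889), Veh2 (-1.15, adjusted p = 0.128), Veh3 (-1.18, adjusted p = 0.143), CORT1 (-1.08, adjusted p = 0.0991) and CORT3 (-1.06, adjusted p = 0.101). With Veh2 and Veh3 both left out it was -1.18 (adjusted p = 0.376).

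Genes of plasma cells moved with Ccr10. All 7 genes of a plasma cell list were lower in CORT, with a median log2 difference of -1.28, and 3 of them fell: Igha (-1.39, adjusted p = 0.0272), the IgA heavy chain constant region, Tnfrsf17 (-1.28, adjusted p = 0.0267), the receptor BCMA, and Sdc1 (-0.73, adjusted p = 0.0462), the surface proteoglycan CD138, which epithelial cells also make. Of all genes tested in intestine 0.919% fell, and the median log2 difference of all of them was -0.01. The plasma cell list summed to 8170, 9900 and 9570 TPM in Veh and to 3640, 4390 and 2770 TPM in CORT, and the groups did not overlap. The CORT mean was 0.297 of the Veh mean for Ccr10, 0.386 for Igha and 0.293 for Tnfrsf17. Per 1000 TPM of Igha, Ccr10 stood at 0.49, 0.403 and 0.392 TPM in Veh and at 0.239, 0.415 and 0.305 TPM in CORT, and on this ratio the groups overlapped through CORT2. The part of plasma cell content in the fall of Ccr10 was not tested.

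**Figure D3:**
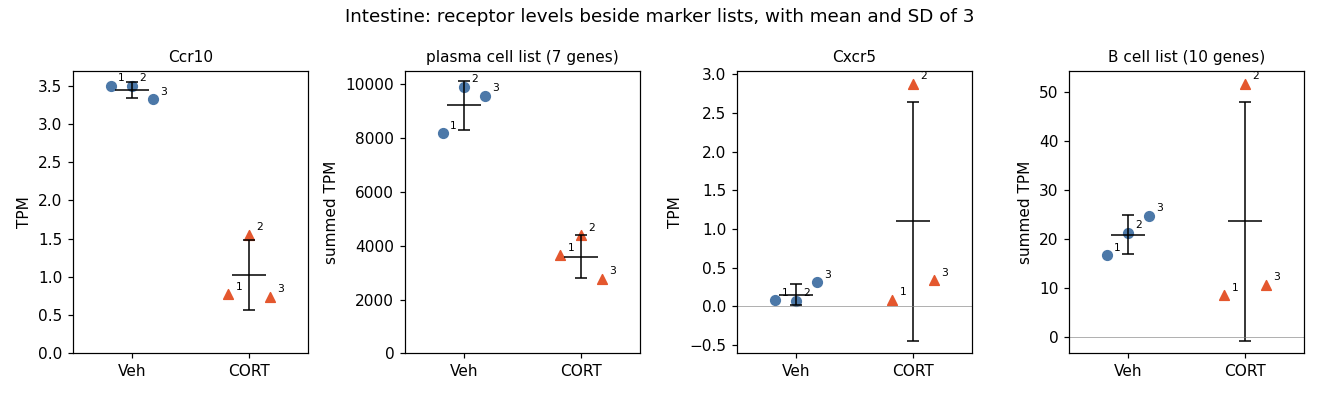
TPM of Ccr10 and Cxcr5, and summed TPM of the plasma cell list (7 genes) and the B cell list (10 genes), in the intestine libraries; numbers mark the library, and bars show the mean and SD of 3. Ccr10 and the plasma cell list are lower in all 3 CORT libraries, while Cxcr5 and the B cell list are high in CORT2 alone.

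The ligands of Ccr10 did not pass the test. Ccl28, the mucosal ligand, was at 6.72, 2.87 and 6.65 TPM in Veh and at 3.28, 5.15 and 2.82 TPM in CORT, so the groups overlapped (-0.40, SE 0.318, adjusted p = 0.529). Ccl27a, better known from skin, ranged from 1.61 to 6.79 TPM over all libraries (-0.47, SE 0.444, adjusted p = 0.59). Its near copy Ccl27b was listed at 0 in all 6 libraries, and reads may be split between such copies in ways the files do not show.

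Ccl25 (ENSMUSG00000023235), the ligand of Ccr9 made by the epithelium of the small bowel, was by far the most abundant member, with 41.6% to 58.9% of the TPM of all 38 ligands. It stood at 737.46, 543.58 and 563.95 TPM in Veh and at 430.17, 411.63 and 444.9 TPM in CORT. All 3 CORT libraries lay below the lowest Veh library, and they were closer to each other than the Veh libraries were. The log2 difference was -0.51 (SE 0.154, 95% interval -0.87 to -0.14), with an adjusted p of 0.151, so that Ccl25 did not pass the test across all genes. The enterocyte list of 11 genes summed to 36300, 24100 and 24400 TPM in Veh and to 46200, 42500 and 45100 TPM in CORT, and 0 of its genes passed in limma, with 3 at an unadjusted p of 0.05 or less, 6 higher and 5 lower by sign. Without its lipid-handling genes Apoa4, Fabp1 and Fabp2, chosen after their values were seen, the sum was 9764, 6733 and 6989 TPM in Veh and 7306, 5340 and 6320 TPM in CORT, and the groups overlapped. The part of enterocyte content in the Ccl25 values was not tested. Leaving out each library in turn gave differences of -0.59 to -0.37, the smallest of them without Veh1, the library with the highest value, and without both Veh2 and Veh3 the difference was -0.78 (adjusted p = 0.333). Exons of Ccl25 overlap those of Elavl1 on the other strand. Its receptor Ccr9 was at 1.41, 2.54 and 2.4 TPM in Veh and at 1.43, 6.04 and 1.39 TPM in CORT (0.17, SE 0.435, adjusted p = 0.865), and it too shares exon sequence with a gene on the other strand, Slc6a20a.

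Ccl22, a ligand of Ccr4 made by dendritic cells and macrophages, was at 1.7, 2.09 and 2.37 TPM in Veh and at 0.27, 0.78 and 0.53 TPM in CORT. The groups were well apart, with a Veh mean 3.9 times the CORT mean. Its log2 difference of -1.01 (SE 0.213, 95% interval -1.51 to -0.50) had an adjusted p of 0.0675 and missed the threshold, which it passed when limma was run without a trend (adjusted p = 0.0454). Ccl17, the other ligand of Ccr4, was at 0.49, 0.21 and 0.94 TPM in Veh and at 0.85, 2.14 and 0.93 TPM in CORT (0.56, SE 0.3, adjusted p = 0.362). The estimates of the 2 ligands thus had opposite signs, and neither passed the test. Ccr4 itself was at 0.23 TPM or below in every library. The dendritic cell list of 7 genes summed to 13.9, 21.4 and 21.7 TPM in Veh and to 10.9, 14.4 and 13.8 TPM in CORT, and its part in the Ccl22 difference was not tested.

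Ccl19 and the Ccl21 genes are the ligands of Ccr7 and guide T cells and dendritic cells through lymphatic vessels and into lymphoid tissue. Ccl21b was at 4.86, 3.54 and 3.97 TPM in Veh and at 1.22, 2.46 and 1.33 TPM in CORT, again without overlap (-0.96, SE 0.22, adjusted p = 0.0803). Ccl21a was more abundant and overlapped between the groups, with 27.42, 35.9 and 21.32 TPM in Veh and 15.82, 43.65 and 13.7 TPM in CORT (-0.36, SE 0.426, adjusted p = 0.672). Ccl21d was listed at 0 in every library. The Ccl21 genes are near-identical copies, so how the reads were shared among them is uncertain. Ccl19 did not reach the minimum for testing and was at 0.36 to 1.64 TPM, with the highest value in CORT2.

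Other inflammatory CC ligands draw monocytes, T cells and eosinophils. Ccl9, a ligand of Ccr1, was at 7.52, 6.41 and 11.5 TPM in Veh and at 11.7, 14.32 and 15.42 TPM in CORT. The gap between the highest Veh and the lowest CORT library was narrow, and the log2 difference of 0.67 (SE 0.217) had an adjusted p of 0.168. Ccl6, its close relative, was at 61.47, 93.68 and 71.03 TPM in Veh and at 63.77, 91.83 and 101.07 TPM in CORT (0.18, SE 0.226, adjusted p = 0.702). Ccl5, which T cells and natural killer cells make, was the second most abundant member, at 232.96, 306.66 and 374.03 TPM in Veh and at 301.48, 247.19 and 279.58 TPM in CORT. Its groups overlapped fully, and its estimate of -0.12 (SE 0.194, adjusted p = 0.767) turned to 0.04 without Veh3. The inflammatory ligands Ccl3 and Ccl4 had log2 differences of -0.07 and -0.75 (adjusted p = 0.925 and 0.275). Ccl11 and Ccl24, which attract eosinophils through Ccr3, had differences of -0.29 and -0.97 (adjusted p = 0.615 and 0.43), the latter with values from 2.05 to 17.52 TPM within Veh alone. Of the receptors, Ccr1 was tested (-0.11, adjusted p = 0.849), while Ccr3 was at 0.69 TPM or below in all libraries.

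Ccl2, Ccl7, Ccl8 and Ccl12 are monocyte chemoattractants, of which Ccl2, Ccl7 and Ccl12 act on Ccr2. Ccl12 was at 1.57, 0.96 and 2.23 TPM in Veh and at 0.39, 0.43 and 0.85 TPM in CORT, without overlap (-0.72, SE 0.257, adjusted p = 0.197). Ccl8 was at 0.5, 13.58 and 10.42 TPM in Veh and at 2.37, 2.89 and 2.64 TPM in CORT. Its Veh1 library lay below all CORT libraries and the other 2 Veh libraries above them, so that the difference of -0.80 had an SE of 0.796 (adjusted p = 0.615). Ccl8 passed the test when Veh1 was left out, and in no other fit with adjusted p-values. Ccl2 and Ccl7 were below the minimum for testing and are named because of their values: Ccl2 was at 0.55, 0.38 and 0.93 TPM in Veh and at 0.1, 0 and 0 TPM in CORT, and Ccl7 at 0.11, 0.97 and 0.86 TPM in Veh and at 0.2, 0 and 0 TPM in CORT. Ccr2 was at 0.09 to 0.68 TPM.

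Other intestinal ligands were abundant but did not pass the test. Cx3cl1, a membrane-bound ligand of epithelium and endothelium, was at 53.51, 44.45 and 38.76 TPM in Veh and at 33.84, 23.76 and 39.56 TPM in CORT (-0.50, SE 0.214, adjusted p = 0.267), and only CORT3 overlapped the Veh range. Its receptor Cx3cr1, which marks resident macrophages of the gut, had a difference of -0.37 (SE 0.257, adjusted p = 0.475). Cxcl14 was at 17.72, 38.52 and 36.19 TPM in Veh and at 22.1, 29.34 and 17.3 TPM in CORT, with full overlap (-0.37, SE 0.323, adjusted p = 0.565). Cxcl16 and its receptor Cxcr6, which holds T cells in tissues, had differences of -0.32 and -0.12 (adjusted p = 0.321 and 0.833). For Cxcl9 and Cxcl10, the interferon-induced ligands of Cxcr3, they were -0.77 and -0.26 (adjusted p = 0.271 and 0.708), and for Cxcr3 the difference was -0.02 (adjusted p = 0.972). The Cxcl12 estimate was 0.15 (adjusted p = 0.657). Ccl20, which draws Ccr6-bearing cells to lymphoid follicles, ranged from 1.99 to 11.34 TPM (0.13, SE 0.548, adjusted p = 0.921). Xcl1, a ligand for cross-presenting dendritic cells, was at 4.72, 4.65 and 3.97 TPM in Veh and at 1.65, 3.44 and 3.6 TPM in CORT, without overlap (-0.52, SE 0.237, adjusted p = 0.29).

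Of the 23 members not tested in intestine, 5 were listed at 0 in all libraries (Ccl21d, Ccl26, Ccl27b, Cxcl3 and Cxcr1). A further 15 were above 0 but never reached 1 TPM, the highest of their values being 0.97 TPM. The remaining 3 (Ccl19, Ccr6 and Ccr7) reached 1 TPM in at least 1 library. The neutrophil ligands Cxcl1, Cxcl2 and Cxcl5 and their receptor Cxcr2 all belong to the untested members.

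In liver 1 member rose, the myeloid chemokine Ccl6, and 0 fell. In that tissue 4.91% of all 11699 genes tested rose and 2.01% fell (575 of 810 calls were higher, against 543 of 1011 after median-ratio scaling). The median log2 difference of the 16 members tested was -0.16, against 0.08 over all genes, with 5 higher and 11 lower in CORT. The groups did not overlap for 4 members (25%), 1 higher and 3 lower, below the 32.2% of all genes tested, and 4 had an unadjusted p of 0.05 or less (25%, against 25.9%). Ccl5 and Cxcl10 reached the minimum of 1 TPM in Veh only, and Cxcl13 and Cxcr4 in CORT only. The 38 ligands summed to 240.3, 353.3 and 205.5 TPM in Veh and to 165.2, 179.3 and 224.3 TPM in CORT. The 18 receptors summed to 2.4, 5.1 and 2.5 TPM in Veh and to 2.2, 2.6 and 6.8 TPM in CORT, and of these only Cxcr4 was tested.

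Ccl6 (ENSMUSG00000018927), a ligand of Ccr1 that macrophages and other myeloid cells make in rodents, measured 3.76, 2.63 and 3.56 TPM in the livers of Veh mice and 6.22, 9.23 and 7.55 TPM in those of CORT mice. All CORT libraries lay well above all Veh libraries. The means were 3.32 ± 0.603 TPM in Veh and 7.67 ± 1.51 TPM in CORT (SD, n = 3 each), a ratio of 2.31, and on the log2 scale Ccl6 rose by 1.00 (SE 0.183, 95% interval 0.57 to 1.43, adjusted p = 0.0258, limma). The call held without Veh2 (0.88, adjusted p = 0.0452) and was lost without Veh1 (1.08, adjusted p = 0.061), Veh3 (1.05, adjusted p = 0.0786), CORT1 (1.13, adjusted p = 0.052), CORT2 (0.87, adjusted p = 0.0692) and CORT3 (1.00, adjusted p = 0.0657).

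The macrophage list of 12 genes summed to 169, 206 and 209 TPM in the Veh livers and to 160, 254 and 441 TPM in the CORT livers. The groups overlapped, and 11 of its 12 genes were higher in CORT by sign, all but Clec4f (-0.02). Of these 1, the scavenger receptor Cd163, rose (2.39, adjusted p = 0.0159, limma), against 4.91% of all genes tested in liver. In intestine 2 genes of this list rose, beside 1.23% of all genes tested there. They were Cd163 (1.60, adjusted p = 0.0329, limma) and Clec4f (2.985, adjusted p = 0.0045, limma). Clec4f was at 0.05, 0.15 and 0 TPM in Veh and at 10.29, 5.31 and 7.42 TPM in CORT. The sum of the macrophage list overlapped between the groups in intestine. The neutrophil list of 8 genes summed to 6.11, 22.7 and 5.5 TPM in Veh and to 0.7, 29.6 and 34 TPM in CORT, with both the lowest and the highest sums in CORT. The part of macrophage or neutrophil content in the rise of Ccl6 was not tested. Ccl9, which acts on the same receptor and was the second most abundant member in liver, overlapped between the groups, with 33.14, 72.78 and 28.17 TPM in Veh and 23.05, 23.87 and 31.76 TPM in CORT (-0.64, SE 0.346, adjusted p = 0.293; -0.23 without Veh2).

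The largest estimate in liver was that of Cxcl1, a ligand of Cxcr2 that recruits neutrophils and that hepatocytes make on injury. Cxcl1 was at 63.86, 30.35 and 23.4 TPM in Veh and at 2.32, 3.69 and 22.77 TPM in CORT. CORT1 and CORT2 were far below the Veh libraries, while CORT3 nearly reached the lowest of them. The log2 difference of -2.36 had a wide interval (SE 0.74, 95% interval -4.10 to -0.61) and an adjusted p of 0.104. Without CORT3 it was -3.22 with an adjusted p of 0.016. The neutrophil list stood at 0.7, 29.6 and 34 TPM in CORT1, CORT2 and CORT3 and at 5.5 to 22.7 TPM in Veh, and its part in the Cxcl1 values was not tested. The other Cxcr2 ligands were not tested: Cxcl3 and Cxcl5 were listed at 0 in every liver library and Cxcl2 was at 0.33 TPM or below.

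Ccl5 was at 2.43, 7.37 and 4.16 TPM in the Veh livers and at 0.3, 0.4 and 1.54 TPM in the CORT livers. The groups did not overlap and the Veh mean was 6.23 times the CORT mean, but the log2 difference of -1.67 (SE 0.391, 95% interval -2.59 to -0.74) had an adjusted p of 0.0505 and just missed the threshold. It passed with a pseudocount of 0.1 (-2.65, adjusted p = 0.0466), after median-ratio scaling (-1.71, adjusted p = 0.0323) and without CORT3 (-1.97, adjusted p = 0.0432). Cxcl10, an interferon-induced ligand of Cxcr3 on activated T cells, was at 2.18, 6.71 and 1.41 TPM in Veh and at 0.26, 0.61 and 1.06 TPM in CORT (-1.27, SE 0.44, adjusted p = 0.127). For Cxcl9, its neighbour with the same receptor, the groups overlapped (-0.62, SE 0.432, adjusted p = 0.408). Veh2 held the highest value of all 3 ligands, and the T cell list of 12 genes was highest there too, at 8.84 TPM against 1.38 to 3.67 TPM in the other 5 libraries. The B cell list was 2.9, 9.46 and 3.71 TPM in Veh and 0.32, 0.2 and 0.71 TPM in CORT. The part of lymphocyte content in these differences was not tested. Without Veh2, the difference was -1.34 for Ccl5 (adjusted p = 0.0873) and -0.78 for Cxcl10 (adjusted p = 0.144).

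**Figure D4:**
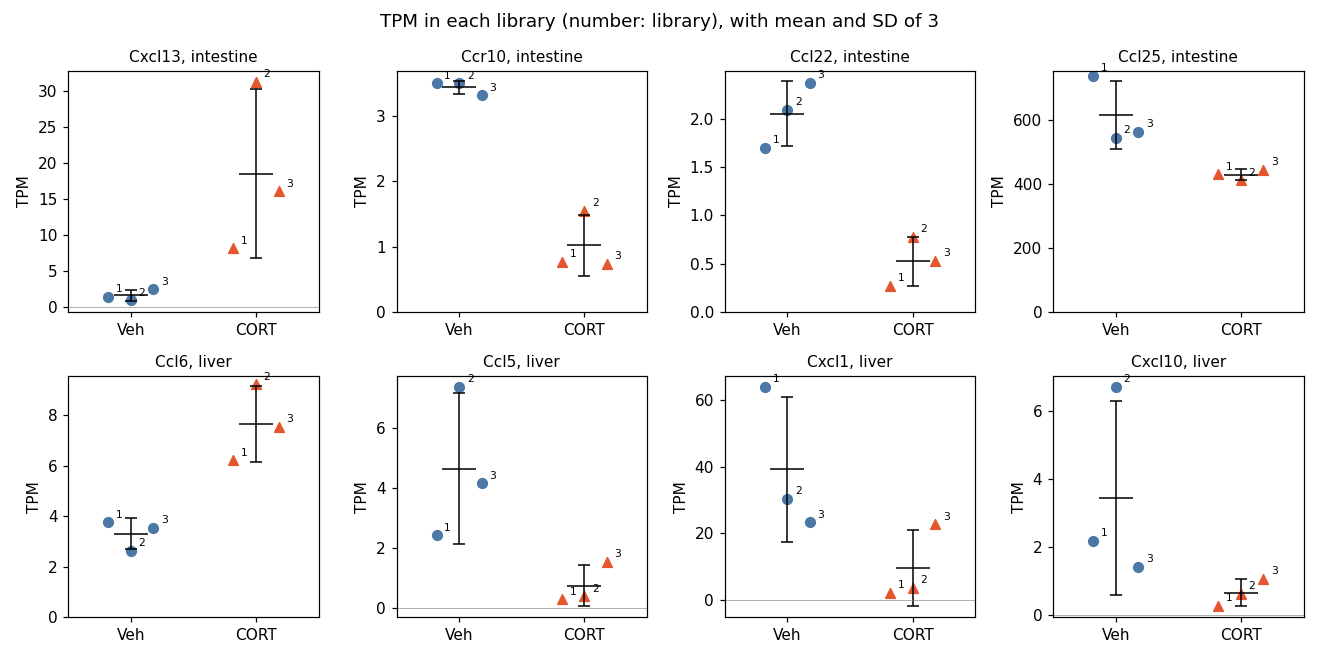
TPM in each library (numbers mark the library) for 4 members in intestine and 4 in liver, with the mean and SD of the 3 libraries of each group; vertical scales differ between panels. Cxcl13 in intestine and Ccl6 in liver are higher in all CORT libraries and Ccr10 is lower, while Cxcl1 in liver shows 1 CORT library (22.77 TPM) close to the lowest Veh library (23.4 TPM).

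Cxcl12, made by stromal and endothelial cells and the main member in liver, was at 109.01, 177.61 and 107.14 TPM in Veh and at 105.68, 110.59 and 123.88 TPM in CORT. The other 5 libraries lay between 105.68 and 123.88 TPM, and the log2 difference was -0.17 (SE 0.213, 95% interval -0.68 to 0.33, adjusted p = 0.646) and 0.07 without Veh2. Cxcl12 held 45.4% to 52.1% of ligand TPM in Veh and 55.2% to 64% in CORT. Its receptor Cxcr4 was at 0.37, 1.13 and 0.63 TPM in Veh and at 1, 0.75 and 3.57 TPM in CORT, with a single high library (0.58, SE 0.396, adjusted p = 0.397). Ccl27a was at 9.4, 14.19 and 9.93 TPM in Veh and at 10.31, 10.66 and 8.57 TPM in CORT (-0.15, SE 0.181, adjusted p = 0.635). Ccl27b was listed at 0 in Veh1 and at 1.39 to 8.52 TPM in the other 5 libraries (adjusted p = 0.967), and as near copies these genes may share reads. Ccl27a also overlaps Il11ra1 on the other strand. Ccl21a, Ccl24, Cxcl14 and Cxcl16 had estimates between -0.47 and 0.02 with adjusted p-values of 0.482 to 0.957.

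Both ligands that stood out in the gut were low in liver. Ccl25 was at 2.89, 5.62 and 2.66 TPM in Veh and at 4.89, 3.34 and 3.91 TPM in CORT (0.14, SE 0.257, adjusted p = 0.768), and Cxcl13 was at 0.73, 0.16 and 1.48 TPM in Veh and at 0.29, 1.52 and 1.25 TPM in CORT (0.19, SE 0.378, adjusted p = 0.791). Of the 40 members not tested in liver, 8 were listed at 0 throughout (Ccl20, Ccl21d, Ccl26, Ccr8, Cxcl15, Cxcl3, Cxcl5 and Cxcr1) and 28 never reached 1 TPM, the highest of their values being 0.75 TPM. Those that reached 1 TPM in a library included Ccl19 (up to 2.06 TPM), Ccl2 (up to 1.42 TPM) and Ccl21b (up to 1.22 TPM).

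Whether a difference was unequal in the 2 tissues was tested directly, with a treatment by tissue term fitted over all 12 libraries. Across all 14806 genes this term passed for 3.6%, and among the members it passed for 1, Ccr10. The log2 difference of Ccr10 in intestine minus that in liver was -1.16 (SE 0.234, adjusted p = 0.0229, limma). The call was lost without Veh2 (-1.15, adjusted p = 0.0502) or Veh3 (-1.18, adjusted p = 0.0519) of intestine, and without Veh3 (-1.14, adjusted p = 0.0556), CORT1 (-1.14, adjusted p = 0.0593) or, by a margin lost in rounding, CORT2 (-1.15) of liver. In liver Ccr10 was at 0.12, 0.03 and 0.05 TPM in Veh and at 0.09, 0.07 and 0.03 TPM in CORT, levels at which the log2(TPM + 1) scale leaves almost no room for a difference. The term for Ccr10 thus restates its fall in intestine, and with a pseudocount of 0.1 it was -1.72 with an adjusted p of 0.117. Cxcl13 (2.59, SE 0.637, adjusted p = 0.0504) and Ccl22 (-0.94, SE 0.234, adjusted p = 0.0535) came close to the threshold. Ccl22 was at 0.1 TPM or below in every liver library, so its term too mostly restates its difference in intestine. Cxcl13 was also low in liver, at 0.16 to 1.52 TPM. For the rise of Ccl6 in liver the term was -0.83 (SE 0.303, adjusted p = 0.178), and for Ccl5, lower in CORT in liver and overlapping in intestine, it was 1.55 (SE 0.464, adjusted p = 0.101). Ccl9, with estimates of 0.67 in intestine and -0.64 in liver, had a term of 1.31 (SE 0.446, adjusted p = 0.145). An unequal response in the tissues was therefore not shown for Ccr10, Cxcl13, Ccl22, Ccl5, Ccl6 or Ccl9.

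The rest of the chemokine system was read from gene lists. Of 10 atypical receptors and chemokines with other names, 6 were tested in intestine and 0 passed in limma, with 1 at an unadjusted p of 0.05 or less. In liver, where 4.91% of all genes tested rose, 5 of the 10 were tested and 1 rose. This was Gpr182, an atypical receptor of endothelium that takes up chemokines, at 1.86, 6.04 and 3.09 TPM in Veh and 9.56, 11.36 and 14.88 TPM in CORT (1.55, SE 0.332, adjusted p = 0.0398). The CORT livers were all above the Veh livers. In intestine Gpr182 was below the minimum for testing, with 0.42 to 0.51 TPM in Veh and 0.89 to 1.04 TPM in CORT. Ackr1, the decoy receptor of venules and red cells, was lower by 0.69 in intestine at an adjusted p of 0.188.

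Of 40 genes that carry the signal below the receptors, such as Gi subunits, arrestins and Rac proteins, 39 were tested in intestine. One of them fell, Rac2, the Rac GTPase of blood cells, from 25.7, 26.01 and 32.13 TPM in Veh to 8.8, 10.6 and 13.78 TPM in CORT (-1.28, SE 0.183, adjusted p = 0.0271). In liver 27 of the 40 were tested and 0 passed in limma, with 3 at an unadjusted p of 0.05 or less, against 25.9% of all genes. Of 24 genes of the lymphotoxin and NF-kB pathways, which drive Cxcl13, Ccl19 and Ccl21 in lymphoid stroma, 20 were tested in intestine and 1 fell, Tnfrsf11a, the receptor RANK, from 10.43, 8.77 and 10.69 TPM to 5.15, 5.3 and 6.02 TPM (-0.75, SE 0.133, adjusted p = 0.0428). In liver 17 were tested and 0 passed, with 3 at an unadjusted p of 0.05 or less. The single falls among 39 and among 20 genes stand beside the 0.919% of all genes that fell in intestine. The medians of these lists in intestine were -0.14 for signaling and -0.01 for lymphotoxin and NF-kB, against -0.01 over all genes.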

How the data were processed

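RNA-seq of 12 libraries (3 Veh and 3 CORT in each of intestine and liver) was analysed. According to the methods and the submitters' processing notes, the authors used SeqPrep and Sickle for trimming, HISAT2 for alignment, StringTie for assembly and RSEM for quantification, on GRCm39; versions, annotation and the strand setting of the quantification are not given in the sources used here. The deposited unit is TPM, scaled by the authors within each library, so depth is unknown and precision comes only from the spread of 3 libraries. For 1 gene an exact permutation test of 3 against 3 cannot go below p = 0.1.

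Genes whose mean reached 1 TPM in Veh or in CORT were tested as log2(TPM + 1), a scale that understates changes of low genes, with limma 3.58.1 in R 4.3.3 (eBayes with a trend, treatment as the only term, each tissue alone), and p-values were adjusted over all genes tested by the Benjamini-Hochberg method. A call needed a fold change over 1.5 and an adjusted p no higher than 0.05. The tissue difference used both tables and a treatment by tissue term. The fits were tested on simulated data. Groups were taken from the labels.

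The members, gene lists and named genes were chosen with earlier results of these data known. Values in every library are given for members called, for Ccl25 and Cxcl13, for tested members with an unadjusted p of 0.05 or less and for the 5 most abundant members of each tissue, and for some of their ligand or receptor partners. List genes are named above where called, apart from genes of the hepatocyte and enterocyte lists. Of those, Cyp3a11 rose in both tissues, and Hnf4a and Apoa4 rose in liver. Ackr1, Ms4a1, Cd79a, Cd79b, Cd22, Clec4f, the ratio to Igha and the tissue markers were chosen after values were seen. So were the values for partners, Ccl2, Ccl7, Ccl8, Ccl21a and Xcl1. Values of 1 member that was not tested in either tissue are not reported here.

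As alternatives, each tissue was refitted without the minimum, with a minimum of 0.5 TPM, a pseudocount of 0.1, median-ratio scaling, a replicate block, no trend, unadjusted p, no limit on fold change, removal of 27 acinar genes (intestine and tissue difference only), and leaving out each library. The 27 genes removed were the 26 acinar genes described above and Zg16, which was at 4313 to 6499 TPM over all intestine libraries. Leaving out Veh2 and Veh3 of intestine together was added after seeing the data. Upstream sequences are from RefSeq on GRCm38.p6, matched by symbol and not converted to GRCm39, the build of the deposited values. Exon overlaps were read from GENCODE on GRCm38.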

Additional observations from a re-analysis of the deposited data

Results flagged for a closer look

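Ccr10 passed the treatment by tissue term, which here restates its fall in intestine. Its log2 difference between CORT and Veh in intestine minus that in liver was -1.16 (SE 0.234, adjusted p = 0.0229, limma). In intestine all 3 CORT libraries were below all 3 Veh libraries, and in liver every library was at 0.12 TPM or below, where log2(TPM + 1) cannot show a change, so an unequal response of the tissues was not shown. With a pseudocount of 0.1 the adjusted p was 0.117, and with the replicate block it was 0.0788.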

How the results depend on the processing

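Of the fitted values for named members under the alternatives, 224 kept their direction and their side of the threshold, 23 lost a call, 5 gained one and 7 changed sign. The intestine count of 2 members called (Cxcl13 and Ccr10) became 6 with unadjusted p-values and 0 without a filter on low values, with the replicate block, or with both Veh2 and Veh3 left out; leaving out each library gave 0 to 1. The liver count of 1 (Ccl6) became 4 with unadjusted p-values, 2 with a pseudocount of 0.1 or median-ratio scaling (Ccl5 added), and 0 without a filter or with the replicate block; leaving out each library gave 0 to 2. The tissue difference count of 1 (Ccr10) became 8 with unadjusted p-values, 3 with median-ratio scaling, 2 without a filter, at a minimum of 0.5 TPM, without a trend or with acinar genes removed, and 0 with a pseudocount of 0.1 or the replicate block; leaving out each library gave 0 to 3. Equal counts need not be the same members. Without Veh1 of intestine the 1 member called was Ccl8, and without CORT3 of liver the 2 were Ccl5 and Cxcl1. In these fits the main calls of the tissue were lost. The cause of these changes was not tested.

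Deviations of same-numbered Veh and CORT libraries correlated at 0.05, 0.07 and -0.00 in intestine and 0.04, -0.01 and -0.12 in liver. These values show no pairing by number, but they cannot exclude a shared batch. Pairing between the intestine and liver of an animal was not examined. With the replicate block the adjusted p was 0.0938 for Cxcl13, 0.0971 for Ccr10 and 0.088 for Ccl6, and over all genes the calls went from 292 to 62 in intestine and from 810 to 307 in liver. Without a filter they were 52 and 283.

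Signs changed with both Veh2 and Veh3 of intestine left out for Ccl5 (0.24) and Cxcl14 (0.32). Leaving out each library gave ranges across 0 for Ccl5 in intestine (-0.299 to 0.042, without Veh3) and, in liver, for Ccl25 (-0.019, without Veh3, to 0.408), and, with the reversed sign without Veh2, Ccl27a (-0.254 to 0.019), Cxcl12 (-0.297 to 0.065) and Cxcl13 (-0.094 to 0.48, in 4 fits, since it fell below 1 TPM without CORT2 or CORT3). Median-ratio scaling moved the liver median of all genes from 0.08 to -0.00 and the share of higher calls from 575 of 810 to 543 of 1011; the median of the tested members was then -0.27. Depth cannot be read from TPM, so low members cannot be called absent.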
